A study of Homo sapiens with 6 samples.

Results

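The long arm of human chromosome 19 carries a dense run of genes for C2H2 zinc finger proteins in its band 19q13, and these genes are described here in MDA-MB-453 cells after knockdown of the small RNA tRF-1-Ser. Members were taken by name and position: a symbol made of ZNF and a number, with at most 1 letter after it, and a smallest exon start above 34 Mb of chromosome 19. Of 36517 genes in the count table, 166 met this rule, and the 151 with at least 10 counts in at least 3 libraries were kept as members. MDA-MB-453 is a human breast cancer cell line. Cells of both groups had received a lentivirus, with a hairpin against tRF-1-Ser in the shtRF group (n = 3) and with a negative control hairpin (shNC) in the control group (n = 3), and their mRNA was sequenced at day 3. tRF-1-Ser is cut from the 3′ trailer of a serine transfer RNA precursor, and these mRNA libraries did not measure it, so the groups rest on the labels. The authors reported checking the efficiency of the knockdown by qPCR in their cell models. The knockdown was made with 1 hairpin sequence in 1 cell line, and the labels do not say whether replicates were separate transductions. The p-values therefore measure the spread between these libraries, which may be partly technical.

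A C2H2 finger is a short loop held by a zinc ion between cysteine and histidine pairs, and a row of such fingers lets a protein read a stretch of DNA. Most finger proteins of this arm also have a KRAB domain at the amino end, which binds the corepressor TRIM28 (also KAP1). TRIM28 in turn brings the histone methyltransferase SETDB1, HP1 proteins and deacetylases, and the proteins are best known for silencing transposable elements. The genes arose by repeated tandem duplication, so neighbours are alike in sequence.

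The markers of the labelled cell type were present. All 7 luminal and apocrine markers examined were expressed, among them FOXA1, GATA3 and KRT8, with 3 higher and 2 lower in shtRF. Of 12 markers of basal, stromal, immune and endothelial cells, 7 were too low to test, including KRT14, PTPRC and CD3E. COL1A1 fell from 32.2 ± 2.87 to 20.9 ± 0.329 CPM (counts scaled to an equal library total with TMM factors, mean ± SD, n = 3), TP63 fell from 2.88 ± 0.409 to 1.99 ± 0.437 CPM, and CD68 rose from 4.71 ± 0.509 to 6.97 ± 1.25 CPM, and their part in the results was not tested. The 12 markers summed to 36.8 to 43.9 CPM in control and 28.9 to 31.2 CPM in shtRF. Libraries held 63541413 to 78917459 counts, and the members took 0.16% to 0.169% of each. In these bulk libraries, fewer cells expressing a gene and less RNA per cell cannot be told apart.

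The 166 genes were spread along the arm in 9 blocks, defined here as runs of these genes separated by gaps of over 1 Mb. The largest blocks were chr19:55476332-58481230, with 54 tested members, chr19:51571298-53580269, with 35, chr19:36182060-37817300, with 26, and chr19:43525497-45076588, with 24 (GRCh38). The other 5 blocks held 12 members between them, such as ZNF30 and ZNF181 in the block nearest the centromere and ZNF114 and ZNF473, each the 1 tested member of its block.

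Sequences at the start of the genes show what many members share. RefSeq promoter sequences (GRCh38.p14, 250 bases before to 50 bases after the start of transcription) were found for 130 members, and the first listed was used for each gene. The letters CCGGAAG, the core of many sites of ETS family factors, stood on either strand in 65 of the 130 (50%). They stood in 18.3% of the 10852 promoters matched to tested genes and in 15% of the 319 promoters of other 19q13 genes. Among ZNF genes elsewhere the share was 38.2% of 55 promoters on chromosome 19 at or below 34 Mb and 36.5% of 192 on other chromosomes. The letters ATGGCGGC, part of the YY1 site, stood in 9 members (6.92%, against 5.99% of tested genes). These matches are descriptions of letters in the window and do not show binding. The 4 promoters printed here belong to the 2 largest rises and 2 largest falls among members that passed the test described below, with CCGGAAG and its reverse complement CTTCCGG in capitals. ZNF547 (chr19:57363301-57363600, plus strand) and ZNF829 (chr19:36916242-36916541, minus strand) each have CTTCCGG once, and ZNF566 (chr19:36489512-36489811, minus strand) and ZNF540 (chr19:37551124-37551423, plus strand) have neither.
ZNF540: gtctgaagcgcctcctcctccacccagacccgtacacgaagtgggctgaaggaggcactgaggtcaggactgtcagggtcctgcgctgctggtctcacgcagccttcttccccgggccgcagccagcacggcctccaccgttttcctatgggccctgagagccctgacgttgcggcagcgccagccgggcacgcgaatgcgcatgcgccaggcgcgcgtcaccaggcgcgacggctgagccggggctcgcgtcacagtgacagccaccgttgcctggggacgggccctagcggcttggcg
ZNF547: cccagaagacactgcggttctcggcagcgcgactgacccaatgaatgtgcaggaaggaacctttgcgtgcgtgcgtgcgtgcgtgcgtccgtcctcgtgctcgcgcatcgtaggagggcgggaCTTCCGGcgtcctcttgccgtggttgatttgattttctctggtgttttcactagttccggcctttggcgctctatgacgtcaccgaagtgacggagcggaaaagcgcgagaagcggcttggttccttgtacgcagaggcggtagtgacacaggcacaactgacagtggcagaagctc
ZNF829: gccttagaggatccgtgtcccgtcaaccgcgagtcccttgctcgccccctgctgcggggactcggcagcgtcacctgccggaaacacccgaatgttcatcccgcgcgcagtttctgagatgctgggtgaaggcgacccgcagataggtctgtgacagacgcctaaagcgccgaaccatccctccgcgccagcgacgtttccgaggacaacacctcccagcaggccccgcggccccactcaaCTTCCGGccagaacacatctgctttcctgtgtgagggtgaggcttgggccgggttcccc
ZNF566: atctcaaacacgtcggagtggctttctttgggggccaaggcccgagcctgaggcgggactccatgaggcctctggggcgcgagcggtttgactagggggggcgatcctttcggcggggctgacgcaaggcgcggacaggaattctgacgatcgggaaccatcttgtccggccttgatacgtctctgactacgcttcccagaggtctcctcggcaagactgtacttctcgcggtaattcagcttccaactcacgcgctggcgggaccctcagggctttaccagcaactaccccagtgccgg
All 4 windows are rich in the dinucleotide CG, with 25 to 30 each, and the 130 members had a median of 23 CG and a range of 2 to 40. By that test, 12 of the 65 members with CCGGAAG rose and 5 fell, with a median log2 fold change of 0.08. Of the 65 without it, 5 rose and 4 fell, with a median of 0.00. Among all tested genes 20.6% rose and 18.9% fell, and both sets of 65 lay below these shares in each direction.

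Most members were expressed at a low level. The median member had 1.4 RPKM (reads per kilobase of exon, scaled to library size), against 2.38 RPKM for all tested genes, and mean levels ran from 0.0371 to 26.2 RPKM. All 151 members had at least 10 counts in all 6 libraries, so none entered the test through the group in which it was higher. The 15 genes of the arm below the limit had at most 21 counts in any library. Neighbouring genes here overlap and resemble each other, and the strand setting of the counting is not known, so reads of some members could be shared with or split among others. For 40 members at least 10% of exon bases lay in exons of other genes.

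Changes of these genes between the shtRF and control groups were small. Of 151 members, 20 were higher (13.2%) and 10 were lower (6.62%) in shtRF at an adjusted p under 0.05 (edgeR's quasi-likelihood test with Benjamini-Hochberg adjustment over 19628 genes), while 121 did not pass. Among all tested genes 39.5% passed, 20.6% higher and 18.9% lower, against 19.9% of the members. This contrast depends on the filter. With no filter beyond 1 count, which tested 36517 genes, 20.6% of all genes and 20.5% of the members passed. No member passed the test with a change of over 2-fold, whereas 5.77% of all tested genes did. Such changes were also rare among ZNF genes elsewhere, as given below. Of the 40 members with an unadjusted p under 0.05, 0 changed over 2-fold, and DESeq2 gave 0 with and without adjustment. Without control replicate 2, 6 members were lower in place of 10. The median log2 fold change (shtRF against control, positive when higher in shtRF) was 0.014 for the members and -0.003 for all tested genes. The median size of the change, without its sign, was 0.17 for members and 0.26 for all genes on the log2 scale. Standard errors (SE) had like medians, 0.10 for members and 0.11 for all genes, but the mix of depths differed. A mean under 100 counts was found in 13 of 151 members, with a median SE of 0.27. It was found in 5679 of 19628 tested genes, with a median SE of 0.41. For 145 of the members (96%) the log2 fold change with 2 SE on both sides lay inside -1 to 1, as it did for 74.3% of all genes. Of the 111 members with under 10% exon overlap, 15 were higher and 7 lower (19.8%, against 41.4% of all tested genes under that limit). The 6 members for which the interval of 2 SE reached past this range were ZNF540, ZNF547, ZNF781, ZNF285, ZNF347 and ZNF154.

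The libraries of the groups did not overlap in 45 members (29.8%), of which 30 were higher and 15 lower in shtRF, against 48.7% of all tested genes, 24.9% higher and 23.8% lower. Of the 30 members that passed the test, 29 did not overlap, and the other was ZNF776, a KRAB finger gene. Its levels were 10.1, 11.3 and 8.68 CPM in control and 12.9, 13.1 and 10.8 CPM in shtRF.

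**Figure D1:**
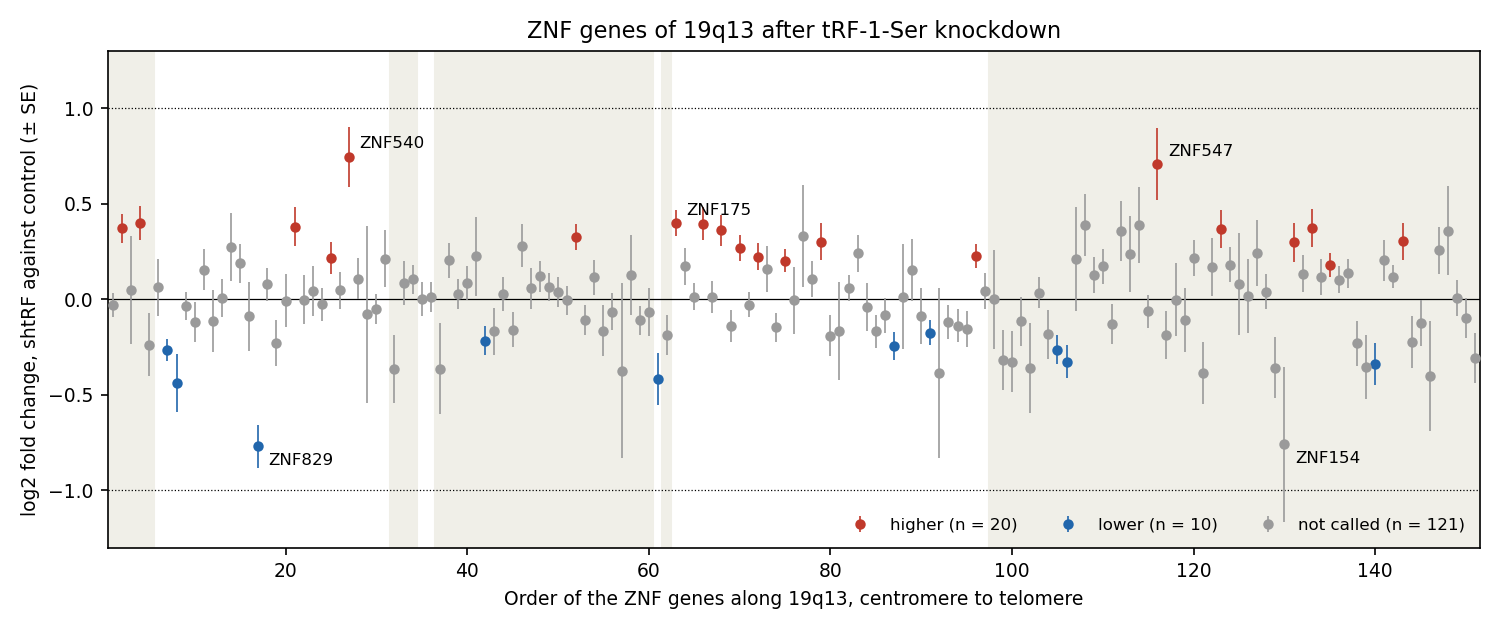
Log2 fold change (shtRF against control, ± SE) of each of the 151 members on the y axis, in their order along 19q13 on the x axis, with the 9 blocks as alternating shading and dotted lines at a change of 2-fold. The 20 higher (red) and 10 lower (blue) members are scattered among the 121 others (grey), and no member reaches a dotted line with its fold change.

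The share of members that passed was lower than that of all genes at each depth examined. Among genes with a mean of 300 to 1000 counts per library, where 69 members lay, 17.4% of members and 41.8% of all genes passed, with a median SE of 0.10 for both. At 1000 to 3000 counts the shares were 41.9% of 31 members and 54.1% of all genes, with a median SE of 0.07 for both. At 100 to 300 counts, 11.8% of 34 members passed against 33.2%. Below 100 counts, none of 13 members passed against 15.2%, and above 3000 counts 1 of 4 members, ZNF146, passed against 61.9%. In the classes of 300 to 1000 and 1000 to 3000 counts the median sizes of change were 0.16 and 0.14 for members and 0.21 and 0.20 for all genes on the log2 scale. No test of the difference in shares was made, since members of 1 block are not independent.

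**Figure D2:**
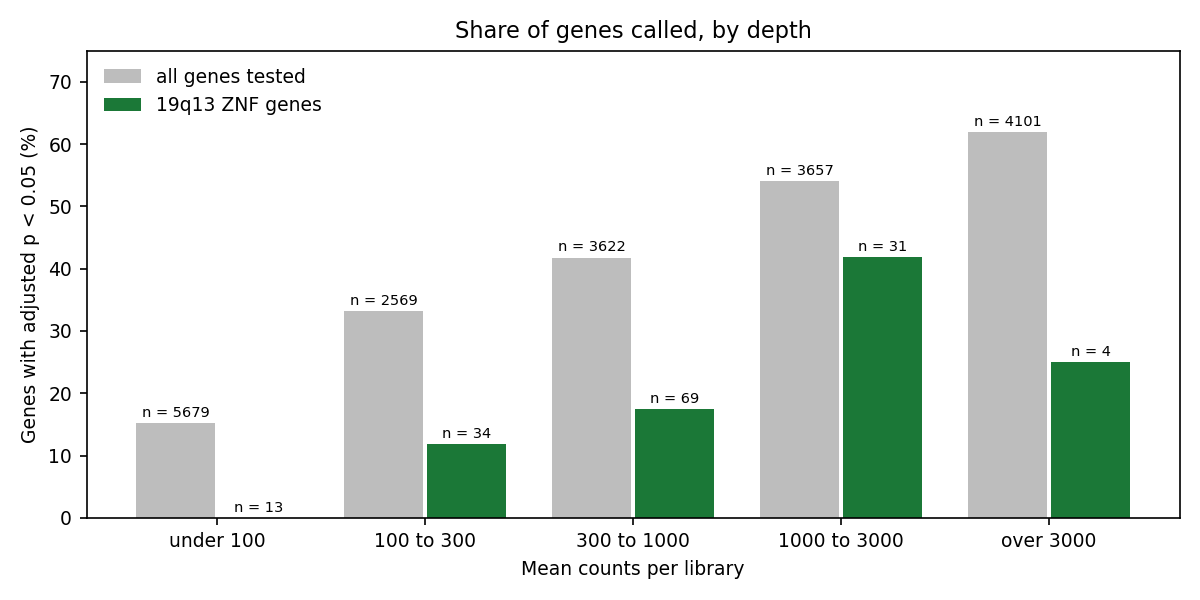
Percentage of genes with an adjusted p under 0.05 (y axis, from 0) in 5 classes of mean counts per library (x axis), for all tested genes (grey) and the 19q13 ZNF genes (green), with the number of genes above each bar. The green bar is lower than the grey bar in each class, for example 17.4% against 41.8% at 300 to 1000 counts.

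Finger genes elsewhere in the genome are set beside these values, with no test between the sets. Of 64 tested ZNF genes of chromosome 19 at or below 34 Mb, 12 were higher and 4 lower (25%), with the same median size of change as the 19q13 members, 0.17. Of 239 ZNF genes of other chromosomes, 34 were higher and 65 lower (41.4%), also with a median size of 0.17 but with a median SE of 0.08 and a median depth of 982 counts, against 0.10 and 539 counts for the 19q13 members. With a change of over 2-fold, 1 of the 64 (1.56%) and 3 of the 239 (1.26%) passed. The lack of such changes was thus not particular to the 19q13 members. Among 589 other genes of 19q13 the median size was 0.30, 37.2% passed, and 27 (4.58%) passed with a change of over 2-fold. Their median SE was larger, 0.14, and their median depth lower, 306 counts, so the sizes of change are not directly comparable.

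The 8 largest rises and 8 largest falls described next were picked among called members whose groups did not overlap. Their lack of overlap was therefore set by that choice. The largest rises were those of ZNF540 and ZNF547, both KRAB finger genes of low level. ZNF540 had 2.43, 2.01 and 1.98 CPM in control and 3.77, 3.07 and 3.9 CPM in shtRF. Every shtRF library was above every control library, and the log2 fold change was 0.75 (SE 0.16, adjusted p = 0.000565). ZNF547 had 1.25, 1.26 and 1.17 CPM in control and 1.87, 2.1 and 2.03 CPM in shtRF, again without overlap, the log2 fold change being 0.71 (SE 0.19, adjusted p = 0.00464). These rises of 67.7% and 63.4% stood on 81 to 265 counts per library. In exon sequence, 6.04% of ZNF540 lay in exons of ZNF571-AS1 and 8.44% of ZNF547 in exons of the locus AC003002.4, both on the same strand.

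The next rises were close to each other, between 29.5% and 31.9%, and their order is not separated by their errors. ZNF175, also known as OTK18, encodes a KRAB finger protein described as a repressor of the HIV promoter in macrophages. It had 26.1, 29.4 and 24.7 CPM in control and 34.5, 34.9 and 36.3 CPM in shtRF, and its log2 fold change of 0.40 (SE 0.07, adjusted p = 6.56e-05) had the smallest adjusted p among the higher members. ZNF30 had 7.39, 7.84 and 8.46 CPM in control and 10.6, 10.6 and 10.1 CPM in shtRF (log2 fold change 0.40, SE 0.09, adjusted p = 0.00128). ZNF181, in the same block of 5 tested members, had 14.0, 13.6 and 12.7 CPM in control and 16.8, 17.7 and 17.5 CPM in shtRF (0.37, SE 0.08, adjusted p = 0.00044). Both therefore had 3 shtRF libraries above all 3 control libraries, and neither shares exon sequence with another gene. ZNF613, with 12 fingers, rose from 9.22, 10.2 and 9.93 CPM to 13.6, 12.8 and 12.3 CPM (0.40, SE 0.09, adjusted p = 0.000762). ZNF585B rose from 6.04, 6.14 and 5.59 CPM to 7.2, 7.98 and 7.95 CPM (0.38, SE 0.10, adjusted p = 0.0049), and ZNF552 from 7.46, 8.06 and 6.6 CPM to 9.03, 9.26 and 10.4 CPM (0.37, SE 0.10, adjusted p = 0.00514). None of the 3 had overlapping groups. ZNF585B has a near-identical neighbour, ZNF585A, and 10.1% of its exon bases lie in exons of the locus CTC-454I21.3, so its counts could be split or shared.

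The other 12 higher members were ZNF226, ZNF480, ZNF615, ZNF549, ZNF761, ZNF432, ZNF616, ZNF544, ZNF808, ZNF776, ZNF570 and ZNF814. Over all 20 the rise ran from 13.3% (ZNF814) to 67.7% (ZNF540), with a median of 26.9%. ZNF226 had 33.5, 30.4 and 31.4 CPM in control and 35.8, 42.6 and 41.2 CPM in shtRF, and ZNF615 had 12.5, 13.3 and 12.7 CPM in control and 17.6, 16.2 and 15.5 CPM in shtRF. For ZNF814, 19.4% of the exon bases lay in exons of ZNF587 on the other strand, and the similar copies ZNF587 and ZNF417 next to it did not pass, with log2 fold changes of 0.10 and 0.14.

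The largest fall was that of ZNF829, a KRAB gene with 9 fingers in the block at 36 to 37 Mb. It had 10.8, 11.4 and 8.76 CPM in control and 6.45, 6.42 and 5.26 CPM in shtRF. The groups were well apart, the log2 fold change being -0.77 (SE 0.11, adjusted p = 1.02e-05), a change of -41.3%. The gene that starts next to it in the opposite direction, ZNF568, whose mouse relative represses a placental form of Igf2, had 12.9, 13.3 and 11.4 CPM in control and 12.8, 14.3 and 12.6 CPM in shtRF (log2 fold change 0.08, SE 0.09, adjusted p = 0.513). Their annotated starts, chr19:36916291 for ZNF829 and chr19:36916329 for ZNF568 (GRCh38), are 38 bases apart.

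ZNF146, also known as OZF, consists almost only of fingers, lacks a KRAB domain and has been described as overexpressed in tumours of the colon and pancreas. It was the most abundant member, with 113, 113 and 129 CPM in control and 97.8, 99.3 and 98 CPM in shtRF. The control libraries lay above the shtRF libraries, the log2 fold change being -0.27 (SE 0.06, adjusted p = 0.000784), a change of -16.9%. In its exons, 10.8% of bases belong also to ZNF565 on the other strand. ZNF566, the next member along the arm, had 3.98, 3.03 and 3.75 CPM in control and 2.96, 2.36 and 2.61 CPM in shtRF (-0.44, SE 0.15, adjusted p = 0.0261). Its lowest control library and highest shtRF library were separated by 3.03 against 2.96 CPM.

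ZNF787 and ZNF444, neighbours near 56 Mb, also both fell. ZNF444, known as EZF-2, has a SCAN domain and was described as binding the promoter of the scavenger receptor SCARF1. It had 17.3, 15.4 and 14.5 CPM in control and 12.9, 11.8 and 12.9 CPM in shtRF (log2 fold change -0.33, SE 0.08, adjusted p = 0.00378). ZNF787 had 16.6, 17.2 and 17.6 CPM in control and 14.5, 13.7 and 14.6 CPM in shtRF (-0.26, SE 0.07, adjusted p = 0.00712). Neither gene shares exon sequence with another. These 2 pairs, ZNF146 with ZNF566 and ZNF787 with ZNF444, were the only neighbouring pairs within a block of which both passed, among 142 pairs.

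ZNF114 had 4.07, 3.69 and 3.58 CPM in control and 2.86, 2.68 and 2.95 CPM in shtRF (-0.42, SE 0.14, adjusted p = 0.0186). ZNF606 had 7.66, 8.41 and 7 CPM in control and 6.82, 5.45 and 5.97 CPM in shtRF (-0.34, SE 0.11, adjusted p = 0.019), and ZNF320, in the block at 51 to 53 Mb, had 23.8, 26.4 and 23.1 CPM in control and 21.5, 21.3 and 19.1 CPM in shtRF (-0.24, SE 0.07, adjusted p = 0.0113). In all 3 the groups did not overlap. The other lower members were ZNF45 and ZNF160, and over all 10 the change ran from -11.4% (ZNF160) to -41.3% (ZNF829), with a median of -18.5%. ZNF320 shares 23.0% of its exon bases with the locus CTD-2331H12.8 on the same strand, and ZNF606 shares 10.3% with the locus CTD-2368P22.1 on the other strand.

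**Figure D3:**
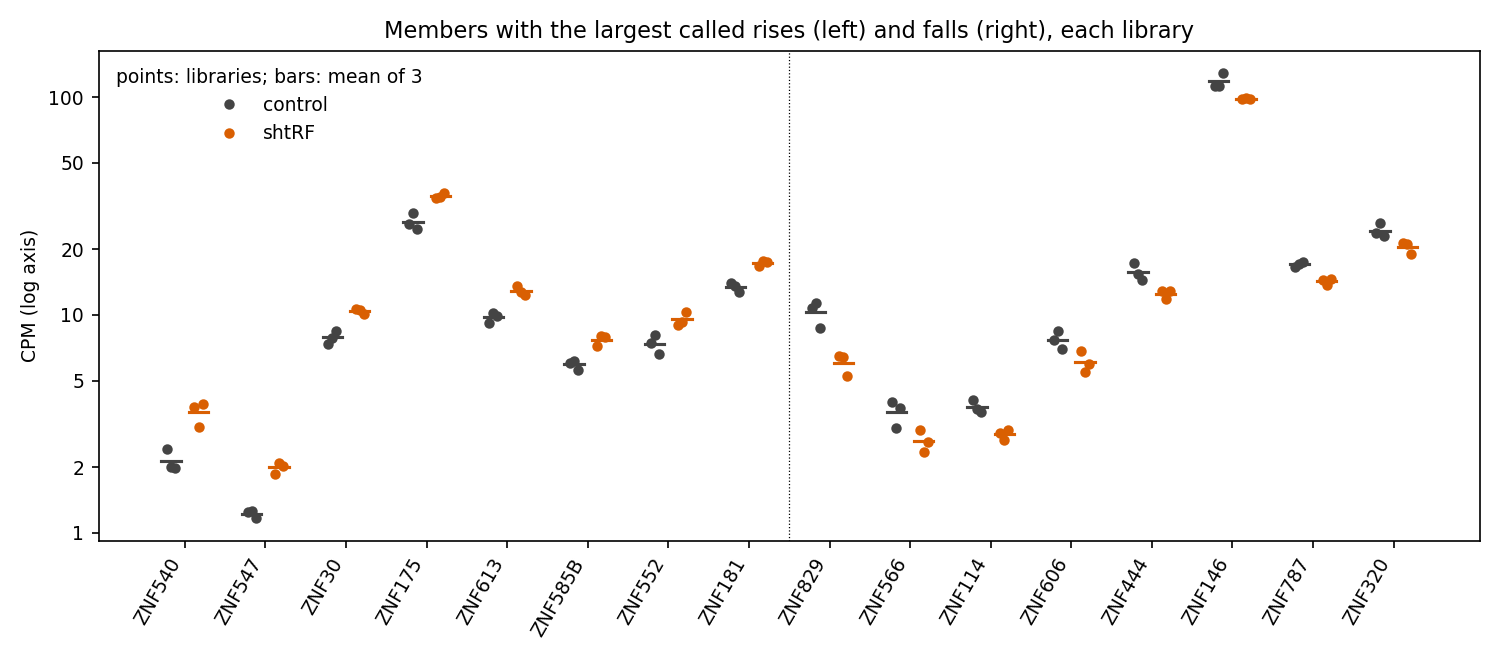
CPM of each library (points, log axis) and the mean of 3 (bars) for the 8 largest called rises on the left and the 8 largest called falls on the right, control in grey and shtRF in orange. The 16 genes were picked among called members whose groups do not overlap, so the lack of overlap here comes from that choice. The means of ZNF829 lie at 10.3 and 6.04 CPM.

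Along the arm, the called members were not gathered in 1 block, and the shares called stand beside 39.5% of all tested genes. In the block of 35 members at 51 to 53 Mb, 8 were higher and 2 lower (28.6%), in that of 54 members at 55 to 58 Mb, 6 were higher and 3 lower (16.7%), and in that of 26 at 36 to 37 Mb, 3 were higher and 3 lower (23.1%). In the block of 24 members at 43 to 45 Mb, ZNF226 was higher and ZNF45 lower (8.33%). Both called members of the first block, ZNF30 and ZNF181, were higher, out of 5 (40%). The 4 larger blocks thus lay below the share of all genes and the first block about at it. In the first block, of 5 members, the share was all higher, and 20.6% of all tested genes were higher. Median log2 fold changes of these blocks lay between 0.00 and 0.05. Members next to each other had weakly related fold changes, with a Spearman rho of 0.09 over 142 neighbouring pairs and 0.11 over the 128 pairs that were not each other's main exon partner, and rho between fold change and order along the arm was 0.00 over 151 members. Neighbours share libraries and, in part, reads, so these are descriptions.

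A stretch within the block at 51 to 53 Mb was singled out after its values were seen. From ZNF175 to ZNF808 (chr19:51571298-52564464) lay 17 tested members, of which 7 were higher, ZNF175, ZNF613, ZNF615, ZNF432, ZNF616, ZNF480 and ZNF808, and 0 lower by edgeR, with a median log2 fold change of 0.17. The share called, 41.2%, was close to the 39.5% of all tested genes called in either direction. All called members of the stretch were higher, and 20.6% of all tested genes were higher. The called genes alternated with others that did not pass, such as ZNF649 (0.01), ZNF350 (0.01) and ZNF614 (-0.14). In the other 18 members of the block 1 was higher, ZNF761, and 2 were lower, ZNF320 and ZNF160, with a median of -0.10. Over all settings that were fitted the stretch held 5 to 7 higher members.

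Protein features were read from the longest open reading frame of each gene's GENCODE transcripts, which 149 members had. The number of C2H2 fingers ran from 1 in ZNF428 to 29 in ZNF850, with a median of 12, and proteins from 170 to 1090 residues long. A KRAB sequence pattern, found in 1.78% of 19668 coding genes, was present in 123 members and not found in 26. All 20 higher members had it, as did 7 of the 10 lower ones, and the lower members without it were ZNF146, ZNF444 and ZNF787. The median log2 fold change was 0.05 in the 123 and -0.10 in the 26. Of 24 members with under 8 fingers 1 was higher and 4 lower, of 67 with 8 to 13 fingers 9 were higher and 4 lower, and of 58 with more, 10 were higher and 2 lower. Spearman's rho between finger number and log2 fold change was 0.20 over 149 members and 0.14 over the 123 with the KRAB pattern. With the share of G and C in the promoter rho was -0.23 over 130 members, which share libraries and common ancestry. Of 41 members with under 20 CG in the promoter, 6 were higher and 0 lower. Of 89 with 20 or more, 11 were higher and 9 lower. Among all tested genes 39.5% passed, 20.6% higher and 18.9% lower. Each class by KRAB pattern, finger number or promoter CG passed less often than the 39.5%.

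**Figure D4:**
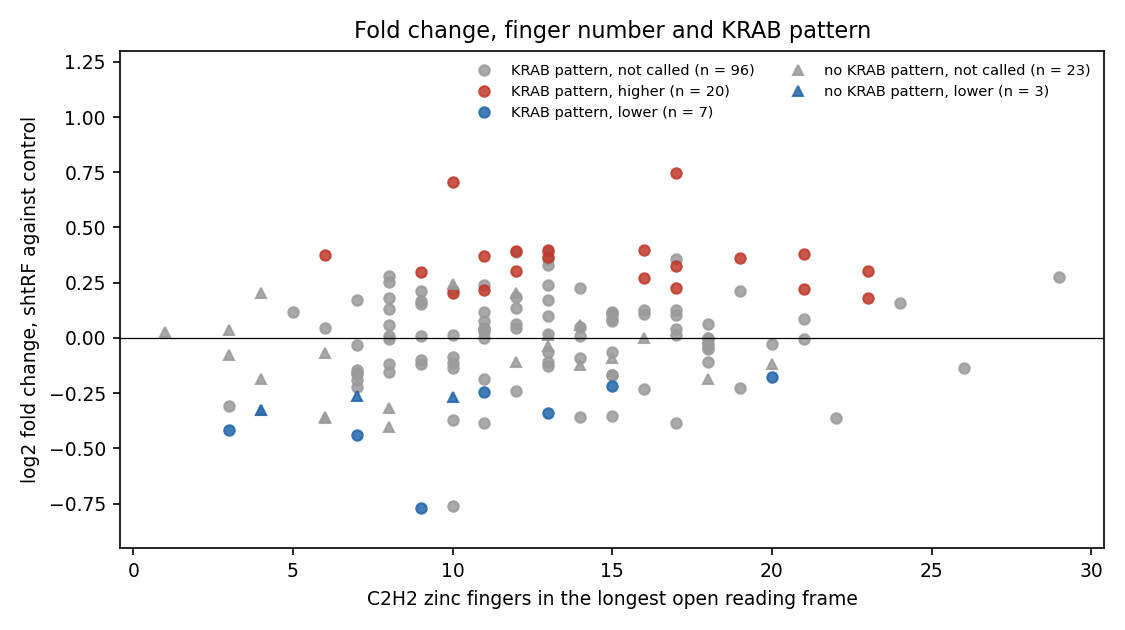
Log2 fold change (shtRF against control, y axis) against the number of C2H2 fingers in the longest open reading frame (x axis) for 149 members, circles with the KRAB pattern and triangles without it, red higher, blue lower and grey not called. All 20 red points are circles, and the 3 blue triangles have 4 to 10 fingers.

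Among the abundant members, ZNF428, with a single finger, had 15.1, 14.6 and 14.8 CPM in control and 14.7, 14.3 and 16.4 CPM in shtRF, and its log2 fold change was 0.03 (SE 0.08, adjusted p = 0.827). ZNF580 had 21.8, 17.4 and 18.2 CPM in control and 20.2, 19 and 19.5 CPM in shtRF (0.03, SE 0.08, adjusted p = 0.783). The groups overlapped in both. ZNF480 rose from 30.2, 32 and 32.5 CPM to 37.2, 37.2 and 34.6 CPM (0.20, SE 0.06, adjusted p = 0.0108), and ZNF224, a KRAB repressor of the aldolase gene ALDOA that also binds WT1, overlapped between groups with 53.9, 47 and 44 CPM in control and 45.9, 52.1 and 53.6 CPM in shtRF (0.07, SE 0.07, adjusted p = 0.514). For ZNF428, ZNF580 and ZNF224, between 15.1% and 40.5% of exon bases are shared with other genes.

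Members with described roles mostly did not pass, as was so for 121 of all 151 members. Among all members 19.9% passed, and among all tested genes 39.5%. In a list of 8, ZNF146 was lower and the other 7 did not pass, with a list median of -0.03. Those were ZNF274, which brings SETDB1 to the 3′ ends of finger genes (0.12, SE 0.06, adjusted p = 0.127), the BRCA1 partner ZNF350 (0.01, SE 0.08, adjusted p = 0.941), the p53 regulator ZNF420 (-0.23, SE 0.12, adjusted p = 0.143), the histone mRNA processing factor ZNF473 (-0.19, SE 0.10, adjusted p = 0.161), ZNF304 (-0.06, SE 0.09, adjusted p = 0.615), ZNF224 and ZNF568. ZNF274 had 46.3, 43.3 and 41.6 CPM in control and 47, 50.2 and 45.3 CPM in shtRF, with the lowest shtRF library below the highest control library.

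Of 7 ZNF genes of the arm reported to bind retroelements, ZNF808 rose, 5 did not pass and ZNF534 was below the limit. The median was 0.12 over the 6 tested. Among all members 19.9% passed, and among all tested genes 39.5%. ZNF808, which represses MER11 elements in the developing pancreas, had 6.92, 6.98 and 6.63 CPM in control and 8.67, 8.61 and 8 CPM in shtRF (0.30, SE 0.10, adjusted p = 0.0153). ZNF611, which binds SVA elements, had 6.75, 7.49 and 6.93 CPM in control and 8.41, 8.62 and 7.98 CPM in shtRF, without overlap, but its adjusted p was 0.0525 (0.24, SE 0.10). ZNF649 had 23.6, 23.8 and 24.2 CPM in control and 21.6, 25.8 and 24.9 CPM in shtRF (0.01, SE 0.07), and ZNF765 had a log2 fold change of -0.16 (SE 0.10).

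Of 10 ZNF genes of the arm described as methylated or silenced in tumours, ZNF671, ZNF471, ZNF677 and ZNF667 were below the limit. Among all members 19.9% passed, and among all tested genes 39.5%. The 6 genes of the list that could be tested did not pass, with a median of 0.16. These were ZNF154, ZNF582, ZNF132, ZNF382, ZNF331 and ZNF577. ZNF154 had 0.4, 0.503 and 0.501 CPM in control and 0.342, 0.306 and 0.177 CPM in shtRF. All shtRF libraries were below all control libraries, but they held 11 to 40 counts, and the log2 fold change was -0.76 with an SE of 0.40 (adjusted p = 0.148). ZNF132 varied within groups, with 1.21, 2.09 and 1.27 CPM in control and 2.45, 1.44 and 1.98 CPM in shtRF (0.36, SE 0.23, adjusted p = 0.238). Without control replicate 2, ZNF132 passed (log2 fold change 0.65, adjusted p = 0.0434), as did ZNF577 (0.27, adjusted p = 0.0438), and without shtRF replicate 1 the log2 fold change of ZNF132 was 0.155 (adjusted p = 0.695). ZNF331, an imprinted gene, had 13.9, 11.6 and 10.8 CPM in control and 12.1, 12.7 and 12.5 CPM in shtRF (0.04, SE 0.09, adjusted p = 0.752).

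The remaining large changes did not pass. ZNF837 had 0.953, 1.03 and 0.877 CPM in control and 0.726, 0.961 and 0.468 CPM in shtRF (-0.40, SE 0.29, adjusted p = 0.291). ZNF583 had 3.72, 3.18 and 4.37 CPM in control and 6.45, 4.22 and 4.06 CPM in shtRF (0.39, SE 0.16, adjusted p = 0.0653), where shtRF replicate 1 stood above the others. ZNF583 passed without control replicate 3 (0.52, adjusted p = 0.0238), shtRF replicate 2 (0.49, adjusted p = 0.0416) or shtRF replicate 3 (0.51, adjusted p = 0.0325), each of which left shtRF replicate 1 in the fit. Of a list of 20 finger gene names of the arm outside the ZNF numbering, 19 had a row (ZFP112 had none) and 11 were tested. By edgeR 0 of the 11 were higher and 0 lower, with a median of 0.02, against 39.5% of all tested genes called. Among them were ZFP30 (17.1 ± 0.802 CPM in control and 17.7 ± 0.553 in shtRF, SD, n = 3), HKR1 (34.1 ± 0.853 and 34.6 ± 1.5) and ZFP28 (9.52 ± 0.408 and 8.65 ± 0.83).

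KRAB proteins act through partners that are encoded outside the finger gene family. Of 29 listed corepressor and heterochromatin genes, all tested, 5 were higher and 10 lower, with a median log2 fold change of -0.03. Among all tested genes 39.5% were called, but that share rises with depth. It was 54.1% at 1000 to 3000 counts and 61.9% above 3000 counts. Many listed genes, such as CBX1, DNMT1 and CHD4, had over 3000 counts in each library. TRIM28, which lies on 19q13 itself, fell slightly, from 69.7 ± 2.54 to 63.3 ± 2.3 CPM (SD, n = 3), the log2 fold change being -0.14 (SE 0.05, adjusted p = 0.0487). SETDB1, the methyltransferase brought by TRIM28, fell from 57.1 ± 2.77 to 40.6 ± 1.89 CPM (-0.49, SE 0.06, adjusted p = 6.79e-07). The HP1 gene CBX5 fell by 0.33 on the log2 scale, HDAC1 by 0.41 and HDAC2 by 0.35, while the HP1 genes CBX1 (0.02) and CBX3 (0.02) did not pass. CDCA7, partner of the chromatin remodeller HELLS in keeping DNA methylated, had the largest change of the list, from 47.0 ± 0.813 to 14.5 ± 0.505 CPM (-1.69, SE 0.06, adjusted p = 6.1e-15). Without control replicate 2 the list had 2 higher members in place of 5. HELLS itself was higher (0.22), as were CHD4 (0.17), MPHOSPH8 (0.28), PPHLN1 (0.17) and DAXX (0.27). The HUSH complex gene TASOR, which works with MPHOSPH8 and PPHLN1, was lower (-0.19). The list was chosen with results of these libraries known, and its share of called genes is given as a description only.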

How the data were processed

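The authors deposited raw read counts per gene (counts on exons, GRCh38), with exon coordinates and lengths. Their processing notes name Trimmomatic 0.36, featureCounts, Subread 1.5.1 and edgeR 3.12.1; the aligner and strand setting are not given in the sources used here. Among counts of 1 to 4, 74.2% to 77.1% were even in each library, so both reads of a pair may have been counted and counts may exceed the number of fragments; halved counts were tried for this reason. A deposited RPKM table was not used; RPKM was recomputed from counts, exon length and library total. Libraries of a group differed by more than counting noise (chi-square per degree of freedom 6.28 to 18.9).

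Counts were tested with edgeR 4.0.16 (R 4.3.3): filterByExpr, TMM (factors 0.961 to 1.03), glmQLFit and glmQLFTest, with Benjamini-Hochberg adjustment over 19628 genes. SE was derived from the fold change and its F statistic. The pipeline was tested on simulated data. Alternatives were RLE and upper quartile scaling, 3 filters, DESeq2 1.42.0, a replicate block, halved counts, members with little exon overlap, and leaving out each library.

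Members and lists were chosen with earlier results of these data known, and 1 gene was removed from each of 2 lists once results were known, as it is not reported here. Named genes were the 8 largest rises and 8 largest falls with adjusted p under 0.05, at least 0.5 CPM and groups not overlapping, the 5 highest by RPKM, the members of the 3 role lists, and the 3 largest changes besides; the other called members were also named. Fingers were counted as C, 2 residues, C, 12 residues, H, 3 to 4 residues, H. The KRAB pattern required 8 of 10 fixed positions. All 166 symbols lay at the same locus in GENCODE 29, so coordinates are GRCh38.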

Additional observations from a re-analysis of the deposited data

How the results depend on the processing

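Replicate numbers did not pair the samples (correlations of deviations 0.06, 0.02 and 0.02); with a replicate block, 21 members were higher and 11 lower. The members called numbered 29 to 32 under scaling, filter, DESeq2, block and halved-count alternatives and 25 to 33 without 1 library, and no member passed over 2-fold in any of these. The share of all genes called moved more with the filter. With no filter beyond 1 count, 20.5% of members and 20.6% of all genes were called. The 1 CPM filter gave 21.1% and 49.2%. Without 1 library, 16.6% to 21.9% of members and 31.6% to 37.4% of all genes were called. Without control replicate 2, 6 members were lower instead of 10, and the range without 1 library was 6 to 15. Corepressor genes higher numbered 3 under upper quartile scaling and 2 to 6 without 1 library, with 3 without control replicate 1, shtRF replicate 2 or shtRF replicate 3 and 2 without control replicate 2. Under upper quartile scaling the members' median was -0.022 against 0.014, with all genes at -0.039, and that of the block at 36 to 37 Mb was -0.034. With members of under 10% exon overlap, 15 of 111 were higher and 7 lower, and the median of the block at 43 to 45 Mb was -0.088. Without 1 library, medians ran from -0.036 to 0.312 for the first block, from -0.002 to 0.046 for the block at 36 to 37 Mb, from -0.033 to 0.042 for that at 51 to 53 Mb and from 0.004 to 0.081 for that at 55 to 58 Mb.

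Of 587 values of the 40 named members, 550 kept direction and side of the threshold, 16 lost the call, 7 gained it and 14 changed sign. Of 18 called named members, 12 passed throughout; ZNF114, ZNF320, ZNF480, ZNF566, ZNF606 and ZNF808 each lost the call when 1 of some libraries was left out, for example ZNF566 without shtRF replicate 2 (adjusted p = 0.115). ZNF583 passed with the replicate block (adjusted p = 0.0443). The sign changed in members that did not pass: under upper quartile scaling ZNF350 (-0.025), ZNF428 (-0.010), ZNF580 (-0.002) and ZNF649 (-0.022), with the 1 CPM filter ZNF350 (-0.009) and ZNF649 (-0.006), with halved counts ZNF350 (0.000), and without 1 library in ZNF331 (-0.033 to 0.144), ZNF350 (-0.043 to 0.049), ZNF428 (-0.029 to 0.068), ZNF580 (-0.039 to 0.130) and ZNF649 (-0.038 to 0.082). The cause was not tested.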
